A study of Mus musculus with 24 samples.

Results

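Transcript levels were examined for 10 genes of the p38-MK2 pathway and of phosphatases that act on MAP kinases or on tristetraprolin (TTP): the kinases Mapk14, Mapkapk2, Mapkapk3, Map2k3 and Map2k6, the dual-specificity phosphatases Dusp1, Dusp2, Dusp6 and Dusp10, and Ppp2ca, which encodes a catalytic subunit of protein phosphatase 2A (PP2A). Dusp6 encodes a phosphatase of the MAP kinase ERK rather than of p38. The genes, 10 of the 55376 counted, were chosen by name around the regulation of TTP. They and the gene lists used below were chosen with earlier results of these data known. Bulk mRNA-seq was carried out on hematopoietic stem cells (HSCs, sorted as LSK CD34- Flk2- CD150+) and on multipotent progenitor 3 (MPP3) cells, a myeloid-biased progenitor, from the bone marrow of untreated male mice. The question was how a higher level of TTP acts on the transcripts of these cells with age and between the cell types. TTPΔARE mice are homozygous for an allele of Zfp36, the TTP gene, that lacks an AU-rich element of its 3′ untranslated region (UTR) in every tissue, and WT mice are their littermates. Among young mice (Y) there were 4 WT and 4 TTPΔARE libraries each of HSCs and of MPP3 cells, and among middle-aged mice (M), with HSCs alone, 5 WT and 3 TTPΔARE libraries. The sample titles number the middle-aged HSC, young HSC and young MPP3 libraries in separate series, each with both genotypes. Differences of age or of cell type therefore cannot be told apart from differences between these library sets. Nothing in the labels says whether each library is a single mouse, so the p-values measure the spread between these samples.

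TTP binds AU-rich elements in the 3′ UTR of its target mRNAs and recruits the enzymes that shorten the poly(A) tail, after which the mRNA is degraded. The kinases MKK3 (Map2k3) and MKK6 (Map2k6) phosphorylate and activate p38α (Mapk14), and p38α activates MK2 (Mapkapk2) and its close relative MK3 (Mapkapk3). MK2 phosphorylates TTP, which stabilises the protein and lowers its activity in mRNA decay, and PP2A removes these phosphates. DUSP1 dephosphorylates p38 and JNK, and its own mRNA is an early-response transcript that is known to be bound by TTP. DUSP10 acts on p38 and JNK, DUSP2 is a nuclear phosphatase of MAP kinases, and DUSP6 is a cytoplasmic phosphatase of ERK whose transcription follows ERK signalling. Phosphorylation and protein levels were not measured, and every value below is a transcript level or a difference of transcript levels.

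The libraries held 24261371 to 39934554 counts (median 34817620.5), and Dusp10, the lowest of the 10 genes, had 160 to 327 counts in each of them. Zfp36 was higher in each TTPΔARE library than in each WT library of the same cell type and age. Slamf1, which encodes the gate marker CD150, was 55.5 to 138 CPM (counts scaled to a common library size) in the HSC libraries and 0.977 to 3.27 CPM in MPP3, the summed level of 10 HSC markers was 3182 to 4821 CPM against 1540 to 2968 CPM, and that of 10 MPP3 markers was 294 to 553 CPM against 1755 to 4244 CPM. Of these markers Kit, Ly6a, Hlf, Prtn3, Irf8 and Cebpe overlapped between the cell types. Y-WT HSC replicate 1 stood apart from the other 3 libraries of its group. It had 64.4 CPM summed over 1971 genes of olfactory and vomeronasal receptors, the chemosensors of the nose, against 598 to 1015 CPM in the other Y-WT HSC libraries, and 27729 detected genes against 40051 to 41676. Those other 3 libraries had the highest values of both among all 24 (medians 151 CPM and 31215.5 genes). Replicate 1 lay within the range of the M-WT HSC libraries (42.7 to 209 CPM and 25988 to 34668 genes). Values without replicate 1 thus rest on the WT libraries with the most receptor signal. Y-TTPΔARE HSC replicate 1 stood apart from its group in the same way. It had 80.6 CPM of the receptor genes against 335 to 395 CPM, and 28398 detected genes against 36533 to 38085. Y-TTPΔARE MPP3 replicate 3 stood apart in the other direction. It had 482 CPM against 53.6 to 98.8 CPM in the rest of its group, and 37289 detected genes against 25117 to 29294. Plasma cell markers set 2 more libraries apart. Their 6 genes summed to 5938 CPM in Y-WT HSC replicate 3, against 765 to 2187 CPM in the rest of its group, and to 4089.5 CPM in Y-WT MPP3 replicate 1, against 522.5 to 1068 CPM. Immunoglobulin and T cell receptor genes held 7.71% and 9.42% of the counts of these libraries, against 0.751 to 2.13% and 0.691 to 2.37%, and Y-WT MPP3 replicate 1 had the lowest sum of MPP3 markers of all MPP3 libraries (1755 CPM). For the main results, values without the libraries that stood apart are given where a call rests on them.

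Of the 10 genes, only Dusp1, Dusp2 and Map2k6 had the motif TATTTAT, the core of the site that TTP prefers, in the 3′ UTR of their main coding transcript. Dusp1 had 3 copies in 690 bases, Map2k6 had 2 in 775 bases and Dusp2 had 1 in 581 bases, and each site is printed because these are the members whose own mRNA could carry a TTP site. Of the 3′ UTRs of 21014 genes 26.2% had the motif, and among 3′ UTRs within 10% of the same length the share was 19.5% for Dusp1, 20.0% for Map2k6 and 15.2% for Dusp2. Zfp36 also had 3 copies, and the first is shown as an example of the sequence of its own 3′ UTR. The sequences are those of GENCODE M21 transcripts on GRCm38, written 5′ to 3′ on the strand of the gene with the motif in capitals; only the mRNA strand was searched, and copies could overlap.
Dusp1 site 1, chr17:26506159-26506187, minus strand: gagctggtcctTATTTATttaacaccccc
Dusp1 site 2, chr17:26505870-26505898, minus strand: gtttttaccttTATTTATttttgtgtagg
Dusp1 site 3, chr17:26505674-26505702, minus strand: gtatgtttgttTATTTATgatctgaagta
Map2k6 site 1, chr11:110513249-110513277, plus strand: tattattttaaTATTTATgtttcagtgct
Map2k6 site 2, chr11:110513328-110513356, plus strand: tgactcggcagTATTTATagggcttttat
Dusp2 site, chr2:127338304-127338332, plus strand: acagcactttaTATTTATatagaacattg
Zfp36 site 1, chr7:28376966-28376994, minus strand: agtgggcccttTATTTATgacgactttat

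The Dusp1 sites began 104, 393 and 589 bases after the stop codon, and the Dusp2 site 520 bases after it. The shorter motif ATTTA, which lies within TATTTAT and is common in 3′ UTRs (62.9% of them), occurred 6 times in the 5804 bases of Ppp2ca, 4 times each in Dusp1, Dusp2 and Map2k6, 3 times in Dusp10, once in Mapk14, Mapkapk2 and Dusp6, and in neither Mapkapk3 nor Map2k3. A match is a description of the sequence, and binding was not measured here.

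Per length of transcript, the genes differed widely in level. Averaged over the 24 libraries, the level per length in RPKM (CPM divided by the exon length in kilobases) was 74.4 for Mapk14 (chr17:28691329-28748406), 64.4 for Dusp2 (chr2:127336159-127338376), 49.8 for Mapkapk2 (chr1:131053700-131097826), 46.3 for Ppp2ca (chr11:52098681-52127778) and 39.7 for Map2k3 (chr11:60932033-60952811). Dusp6 (chr10:99263231-99267489) was at 33.2, Mapkapk3 (chr9:107254927-107289877) at 29.8 and Dusp1 (chr17:26505590-26562128) at 13.0 RPKM. Map2k6 (chr11:110399122-110525522) at 3.99 and Dusp10 (chr1:184013302-184075636) at 2.43 RPKM were the lowest. The MKK3 transcript was thus far above the MKK6 transcript per length, and Dusp2 was the most abundant of the 4 phosphatases of MAP kinases. The exons of Ppp2ca share 39.9% of their bases with the lincRNA 9430098F02Rik on the opposite strand, and whether the counting used strand is not stated, so reads of these genes cannot be told apart there.

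**Figure D1:**
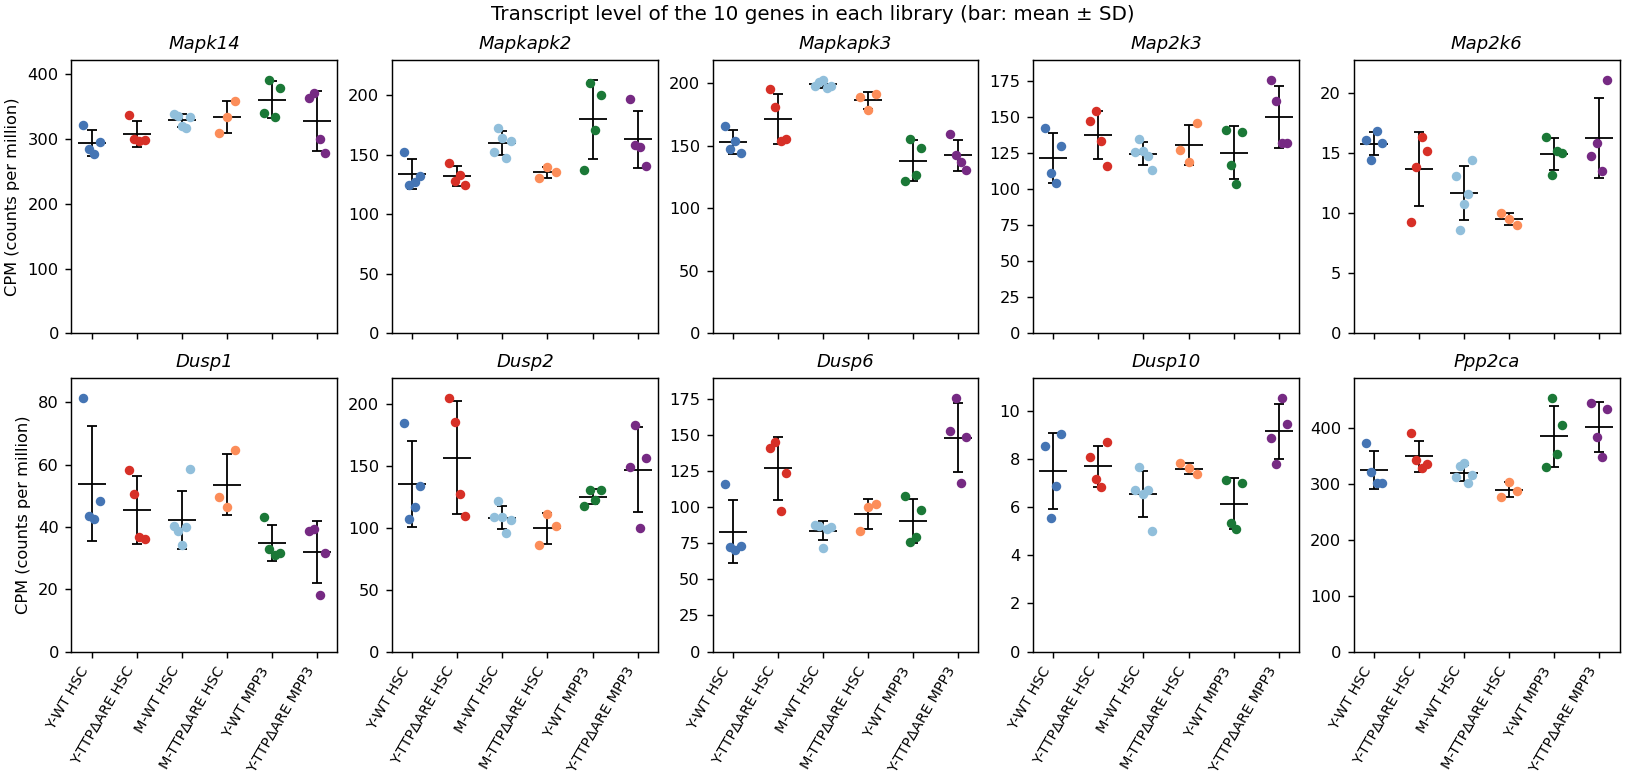
Level of each of the 10 genes in CPM (vertical axis, from 0) in every library, by group (horizontal axis). Points are libraries and bars are the mean ± SD. Dusp6 of Y-TTPΔARE MPP3 lies between 117 and 175 CPM, above all Y-WT MPP3 libraries (76.0 to 108 CPM), while for Mapk14, Ppp2ca and Map2k3 the genotypes of each cell type and age overlap.

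Zfp36 itself, the targeted gene, checks the labels. In young HSCs it was 72.6, 33.1, 35.9 and 53.7 CPM in Y-WT and 113, 91.6, 83.3 and 94.0 CPM in Y-TTPΔARE. In middle-aged HSCs it was 43.6 to 64.2 CPM in the 5 M-WT libraries and 91.5, 102 and 110.3 CPM in M-TTPΔARE, and in MPP3 it was 34.6, 21.6, 25.6 and 32.6 CPM in Y-WT and 118, 100.3, 72.7 and 102 CPM in Y-TTPΔARE. The groups did not overlap in any of these sets. The log2 fold change was 0.96 (SE 0.21) in young HSCs, 0.97 (SE 0.11) in middle-aged HSCs and 1.80 (SE 0.18) in MPP3, with adjusted p of 0.238, 0.0020 and 6.5e-04 by the quasi-likelihood test of edgeR after Benjamini-Hochberg adjustment over all genes. In young HSCs DESeq2 called Zfp36 (0.97, adjusted p = 7.4e-04), as did edgeR when Y-WT HSC replicate 1 was left out (1.27, adjusted p = 0.0419). Levels of Zfp36 were close to each other in the 3 TTPΔARE groups, with means of 95.5 to 101 CPM, and lowest in Y-WT MPP3, with a mean of 28.6 CPM (SD 6.04, n = 4).

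Among the 10 genes, Dusp6 was the only one called between genotypes, in MPP3. In Y-WT MPP3 it was 108, 76.0, 79.3 and 97.9 CPM, and in Y-TTPΔARE MPP3 it was 153, 175, 117 and 149 CPM. The lowest TTPΔARE library lay above the highest WT library. The level rose 1.67-fold (log2 fold change 0.74, SE 0.15, adjusted p = 0.0375 by edgeR), and passed the limits for a call: less than 0.05 for the adjusted p, more than 1.2 for the fold change in either direction and more than 1.5 for the average log2 CPM. In this comparison 1.71% of the 19023 genes tested were called (299 higher and 26 lower), and 1 of the 10 genes was. All 10 were over the level limit, as were 12850 of the genes tested, and genes under it could not be called. The share among genes that could be called is therefore higher than 1.71%, and the same holds for the shares of genes tested given below. The median log2 fold change of the 10 was 0.12. Groups did not overlap for 2 of the 10 genes, Dusp6 and Dusp10, against 8.68% of the 12850 genes over the level limit. The call was kept by DESeq2 (adjusted p = 2.0e-04), by the likelihood ratio test (adjusted p = 0.0033) and without Y-WT MPP3 replicate 1 (log2 fold change 0.83, adjusted p = 0.0341), and was lost, at log2 fold changes of 0.65 to 0.77 and adjusted p of 0.0633 to 0.141, when Y-WT MPP3 replicate 2, 3 or 4 or Y-TTPΔARE MPP3 replicate 1, 2 or 4 was left out. With the replicate number as a block the call was lost as well.

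Markers of several other cell types also moved between the genotypes of MPP3. The summed level of 10 monocyte and macrophage markers was 1108 to 1585 CPM in Y-TTPΔARE and 566 to 789 CPM in Y-WT, all 10 had a positive log2 fold change and 3 of them (Ccr2, Adgre1 and Cd68) were called. Of 6 dendritic cell markers 4 were called higher, with a summed level of 712 to 858 CPM against 467 to 613 CPM, and of the 10 MPP3 markers Fcgr3, Elane and Irf8 were called higher. Of the T and NK cell markers all 9 tested were positive, with Lck and Klrd1 called, all 10 B cell markers were positive with none called, the erythroid genes Hbb-bs and Hbb-bt were called higher, and the megakaryocyte marker Itga2b was called lower. Of 7 endothelial markers tested 4 were positive and 3 negative, with Tek called lower. Their sum was 124 to 140 CPM in Y-TTPΔARE and 143 to 176 CPM in Y-WT. Megakaryocyte markers summed to 81.0 to 103 CPM in Y-TTPΔARE and 142 to 171 CPM in Y-WT. Of 10 HSC markers 7 were negative, with none called and 3 at an unadjusted p under 0.05 (1540 to 2493 and 2246 to 2968 CPM in sum). The complement genes C1qa, C1qb and C1qc, which define macrophages, were above 0 in all 8 libraries. Summed levels of 17 immediate early genes were 367 to 563 CPM in Y-TTPΔARE and 329.8 to 419 CPM in Y-WT, with Btg2 (log2 fold change 0.80) and Klf6 (0.77) called higher. Of 6 plasma cell markers 5 were positive, with none called and 0 at an unadjusted p under 0.05 (595 to 4659.7 CPM in Y-TTPΔARE and 522.5 to 4089.5 CPM in Y-WT in sum), and all 7 heat shock genes were positive, with none called and 1 at an unadjusted p under 0.05 (2682 to 4545 against 2596 to 3468 CPM). The olfactory and vomeronasal receptor genes summed to 53.6 to 482 CPM in Y-TTPΔARE and 20.5 to 300.5 CPM in Y-WT. The part of all these in the Dusp6 result was not tested. In bulk samples more cells of a type and more RNA per cell cannot be told apart.

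In young HSCs, Dusp6 was 116, 72.3, 70.6 and 73.5 CPM in Y-WT and 141, 145, 97.5 and 124 CPM in Y-TTPΔARE. All Y-TTPΔARE libraries lay above 3 of the Y-WT libraries, and the fourth, Y-WT HSC replicate 1, lay between the lowest and the second lowest of them. The log2 fold change was 0.60 (SE 0.17, unadjusted p = 0.0053), the smallest p of the 10 genes, and did not pass edgeR's test after adjustment (adjusted p = 0.350). Without replicate 1 of Y-WT it was 0.87 (adjusted p = 0.0718), and DESeq2 called it (0.62, adjusted p = 0.0182). Olfactory and vomeronasal receptor genes summed to 80.6 to 395 CPM in Y-TTPΔARE, below the 598 to 1015 CPM of the 3 Y-WT libraries with low Dusp6 and above the 64.4 CPM of replicate 1, and the part of this in the result was not tested. Of 10 T and NK cell markers all had a positive log2 fold change and 8 an unadjusted p under 0.05, with a summed level of 113 to 235 CPM against 81.5 to 99.6 CPM in Y-WT. Of 9 erythroid markers all were positive and Hbb-bt was called, 9 of 10 monocyte and macrophage markers were positive (5 at an unadjusted p under 0.05), all 8 endothelial markers were negative (6 at an unadjusted p under 0.05), all 7 neutrophil markers tested were negative (2 at an unadjusted p under 0.05) and all 7 heat shock genes were positive (4 at an unadjusted p under 0.05). The neutrophil markers summed to 177 CPM in Y-WT HSC replicate 4, against 6.60 to 21.5 CPM in the rest of its group. In Y-TTPΔARE HSCs they summed to 10.3 to 14.4 CPM. The part of all these markers and genes was not tested either. In this comparison edgeR called none of the 10 genes, 1 had an unadjusted p under 0.05, DESeq2 called 1 and the likelihood ratio test none. Over all genes edgeR called 0.0246% of the 24381 tested, DESeq2 304 genes and the likelihood ratio test 146. The median log2 fold change of the 10 was 0.07, and none of them separated the genotypes, against 5.19% of genes over the level limit. Without Y-WT HSC replicate 1 the log2 fold change was 0.44 for Dusp2, 0.31 for Map2k3, 0.26 for Mapkapk3, 0.23 for Ppp2ca, 0.16 for Mapk14, 0.15 for Dusp10, 0.10 for Mapkapk2 and -0.15 for Map2k6, each above its value with all libraries, and none of the 10 was called. Y-TTPΔARE HSC replicate 1 stood apart in the same way. Without that library the log2 fold change was 0.097 for Dusp2, -0.34 for Dusp1 and -0.015 for Map2k6, and again none of the 10 was called.

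In middle-aged HSCs, Dusp6 was 88.0, 87.1, 72.0, 84.9 and 86.6 CPM in M-WT and 83.3, 99.9 and 102 CPM in M-TTPΔARE, and the groups overlapped through the first M-TTPΔARE library. The log2 fold change was 0.21 (SE 0.08, adjusted p = 0.228). None of the 10 genes was called by edgeR, DESeq2 or the likelihood ratio test. By edgeR 3 had an unadjusted p under 0.05 (Mapkapk2, Dusp6 and Dusp1), as did 3385 of all genes tested. Over all genes edgeR called 1.41% of 21136, DESeq2 823 genes and the likelihood ratio test 287. The median of the 10 was -0.0057. Groups did not overlap for 2 of the 10, Mapkapk2 and Mapkapk3, against 13.2% of genes over the level limit. The order of the group means of Dusp6 was Y-TTPΔARE MPP3 (148 CPM), Y-TTPΔARE HSC (127), M-TTPΔARE HSC (95.2), Y-WT MPP3 (90.3), M-WT HSC (83.7) and Y-WT HSC (83.2), and each group overlapped its neighbour in that order.

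**Figure D2:**
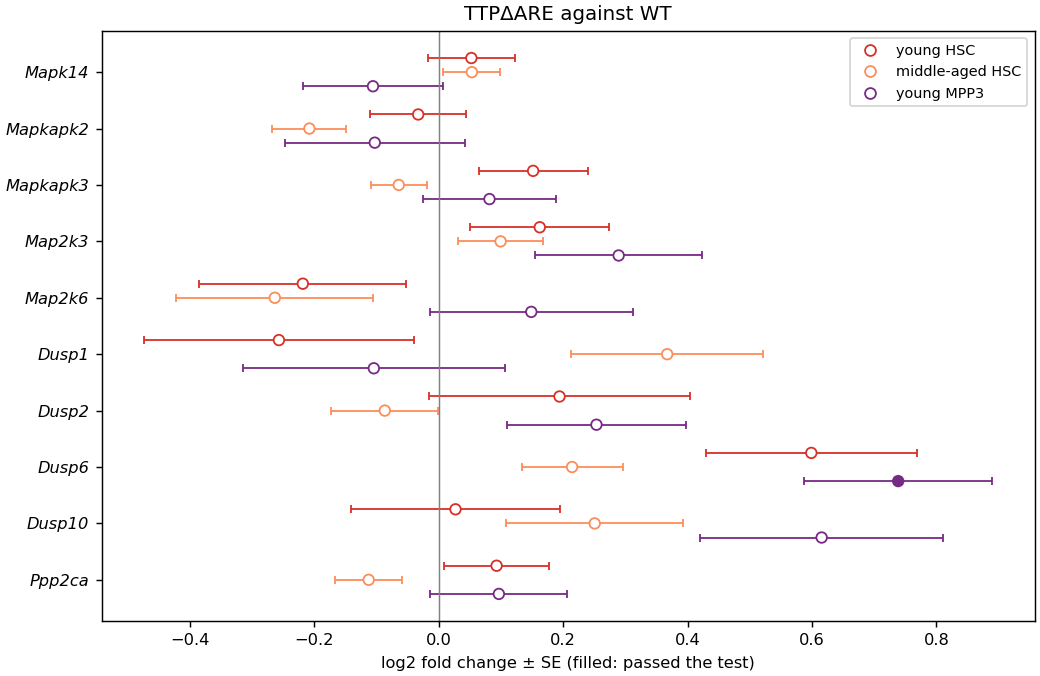
Log2 fold change of TTPΔARE against WT (horizontal axis) for each of the 10 genes (vertical axis) in HSCs of either age and in MPP3 of young mice. Bars are the SE, and a filled point passed the test. Dusp6 in MPP3 (0.74) is the only filled point, and Dusp6 is above 0 in each of the 3 sets.

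Genes that respond to ERK, the substrate of DUSP6, were read from a list of 12 (Spry, Spred and Etv genes, Phlda1, Dusp4 and Dusp5). In middle-aged HSCs, where 1.41% of all genes were called, 3 of the 12 were called, all higher in M-TTPΔARE, and 10 of 12 had a positive log2 fold change. The median of the 12 was 0.36, against -0.03 over the genes above the level limit, which 9 of the 12 passed. Dusp4, a nuclear phosphatase of ERK, was 34.3, 34.9, 26.7, 31.1 and 33.7 CPM in M-WT and 46.9, 55.7 and 54.8 CPM in M-TTPΔARE, and rose with a log2 fold change of 0.74 (SE 0.09, adjusted p = 0.0036). Etv5, a transcription factor of the Ets family, was 69.2 to 89.9 CPM in M-WT and 105, 105 and 117 CPM in M-TTPΔARE (0.44, SE 0.08, adjusted p = 0.0248). Spry4, an inhibitor of receptor tyrosine kinase signalling, was 4.80 to 6.67 CPM in M-WT and 11.0, 10.8 and 8.71 CPM in M-TTPΔARE (0.84, SE 0.15, adjusted p = 0.0224). The genotypes of middle-aged HSCs did not overlap for any of these genes. Nor did they overlap for the summed level of megakaryocyte markers (566 to 687 CPM in M-WT, 405 to 487 CPM in M-TTPΔARE), erythroid markers (1148 to 1617 and 1735 to 2124 CPM), MPP3 markers (399.7 to 504 and 294 to 322 CPM), monocyte and macrophage markers (459 to 514 and 430.2 to 447 CPM) and neutrophil markers (6.11 to 15.2 and 3.45 to 4.94 CPM). Of all cell type markers Procr and Car2 were called higher and Cd34, Itga2b, Vcam1 and Xbp1 lower. Of 17 immediate early genes 11 were positive, with none called and 4 at an unadjusted p under 0.05 (505 to 805 CPM in M-WT and 528 to 669 CPM in M-TTPΔARE in sum), and 6 of 7 heat shock genes were negative, with none called and 4 at an unadjusted p under 0.05 (2021 to 2813 and 1877 to 2141 CPM). The olfactory and vomeronasal receptor genes summed to 42.7 to 209 CPM in M-WT (median 80.2) and 92.3 to 389.8 CPM in M-TTPΔARE (median 203). The part of all these in the result was not tested. The calls of Dusp4, Etv5 and Spry4 were lost when the 24 libraries shared a single fit (adjusted p of 0.583 to 0.617). Those of Etv5 and Spry4 were lost without M-TTPΔARE HSC replicate 1 or 2, which left 1 called gene, and that of Etv5 also without M-TTPΔARE replicate 3 or M-WT replicate 5. With the replicate number as a block the calls of Etv5 and Spry4 were lost as well. In young HSCs and in MPP3 none of the 12 was called by edgeR or DESeq2, with 1 at an unadjusted p under 0.05 in each, and Dusp4 overlapped between the genotypes (17.7 to 23.0 against 20.2 to 29.8 CPM, and 3.15 to 12.8 against 2.27 to 12.0 CPM).

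**Figure D3:**
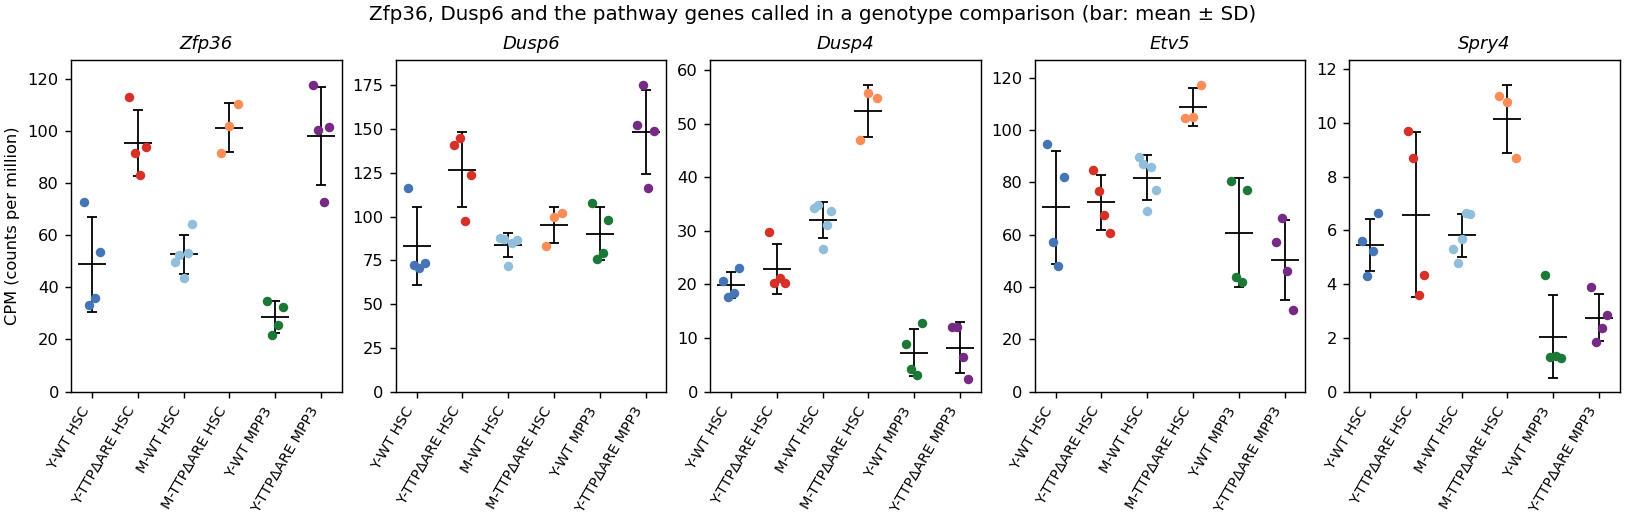
Level in CPM (vertical axis, from 0) of Zfp36, Dusp6, Dusp4, Etv5 and Spry4 in every library, by group (horizontal axis). Points are libraries and bars are the mean ± SD. Zfp36 is above WT in each TTPΔARE group, Dusp6 separates in MPP3, and Dusp4 (46.9 to 55.7 against 26.7 to 34.9 CPM), Etv5 and Spry4 separate in middle-aged HSCs.

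Of the kinases, Mapkapk2, which encodes the kinase that phosphorylates TTP, was 152, 172, 164, 147 and 162 CPM in M-WT HSCs and 130.4, 139 and 135 CPM in M-TTPΔARE HSCs. Every M-TTPΔARE library lay below every M-WT library. The log2 fold change was -0.21 (SE 0.06, unadjusted p = 0.0048, adjusted p = 0.113 by edgeR), a difference of 0.866-fold that also lies under the fold limit, and DESeq2 gave -0.20 with an adjusted p of 0.0165. In young HSCs the values were 152, 125, 127 and 132 CPM in Y-WT and 143, 128, 133 and 124 CPM in Y-TTPΔARE (-0.03, SE 0.08), and in MPP3 they were 137, 210.2, 171 and 199.7 CPM against 196, 158, 156 and 140.3 CPM (-0.10, SE 0.14). Both of these overlapped between genotypes. Within groups Mapkapk2 had an r of -0.68 with the summed olfactory and vomeronasal receptor genes and of 0.53 with the summed heat shock genes, which in middle-aged HSCs had the levels given above for the ERK response genes, and the part of these in the Mapkapk2 difference was not tested.

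Mapkapk3 was 196 to 202 CPM in the 5 M-WT HSC libraries, the group with the smallest SD for its mean among the 10 genes (mean 199, SD 2.60), and 189, 178 and 191 CPM in M-TTPΔARE. The groups did not overlap, yet the log2 fold change was only -0.06 (SE 0.05, adjusted p = 0.515). In young HSCs it was 165, 147, 154 and 144 CPM in Y-WT and 195, 181, 154 and 155 CPM in Y-TTPΔARE (0.15, SE 0.09, adjusted p = 0.717), and in MPP3 122, 155, 126 and 148 CPM against 159, 143, 137 and 130.2 CPM (0.08, SE 0.11). Mapk14, p38α itself, was 322, 285, 277 and 295 CPM in Y-WT HSCs and 338, 300.3, 297 and 298 CPM in Y-TTPΔARE HSCs, 339, 335, 319.5, 318 and 333 CPM in M-WT and 309.8, 335 and 358 CPM in M-TTPΔARE, and 341, 391, 334 and 379.5 CPM in Y-WT MPP3 and 364, 371, 300.3 and 278 CPM in Y-TTPΔARE MPP3. Its log2 fold changes between genotypes were 0.05, 0.05 and -0.11 in young HSCs, middle-aged HSCs and MPP3, with adjusted p of 0.602 to 0.795.

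Nor did the upstream kinases pass the test between genotypes. Map2k3 had log2 fold changes of 0.16 (SE 0.11), 0.10 (SE 0.07) and 0.29 (SE 0.13) in young HSCs, middle-aged HSCs and MPP3, positive in each, with adjusted p of 0.717, 0.506 and 0.434. Map2k6 was 16.1, 14.4, 16.8 and 15.8 CPM in Y-WT HSCs and 9.31, 13.8, 16.4 and 15.2 CPM in Y-TTPΔARE HSCs, with the first Y-TTPΔARE library the lowest of the 8. In middle-aged HSCs it was 13.1, 8.59, 10.8, 11.6 and 14.4 CPM against 10.02, 9.54 and 9.02 CPM, and in MPP3 16.3, 13.2, 15.2 and 15.0 CPM against 14.8, 15.8, 13.5 and 21.0 CPM. Its log2 fold changes were -0.22, -0.26 and 0.15, and none passed (adjusted p of 0.440 to 0.751). In young HSCs the value was -0.015 without Y-TTPΔARE HSC replicate 1. Of 24 other genes of the p38 pathway (other p38 isoforms, kinases upstream of MKK3 and MKK6, their adaptors, kinases downstream of p38 and the chaperone Hspb1), edgeR called none in any of the 3 genotype comparisons. In young HSCs 0, in middle-aged HSCs 6 and in MPP3 9 of the 24 had an unadjusted p under 0.05, beside 1799 of 24381, 3385 of 21136 and 2296 of 19023 genes tested. DESeq2 called 0, 1 and 0 of the 24, and 304, 823 and 766 of all genes. The median log2 fold changes of the 24 were -0.02, -0.11 and -0.01, beside 0.03, -0.03 and -0.0025 over the genes above the level limit.

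Dusp1, the phosphatase of p38 with 3 TATTTAT sites, varied most from library to library. It was 81.2, 43.4, 42.4 and 48.2 CPM in Y-WT HSCs and 58.2, 50.6, 36.6 and 36.1 CPM in Y-TTPΔARE HSCs. The first Y-WT library was the highest of all 24, and the log2 fold change of -0.26 (SE 0.22, adjusted p = 0.723) turned to 0.07 without it. In middle-aged HSCs Dusp1 was 40.2, 38.7, 34.3, 39.97 and 58.4 CPM in M-WT and 49.5, 46.5 and 64.7 CPM in M-TTPΔARE (0.37, SE 0.15, unadjusted p = 0.0365, adjusted p = 0.277), and the groups overlapped through M-WT replicate 5. In MPP3 it was 43.2, 33.0, 30.8 and 31.6 CPM in Y-WT and 38.8, 39.4, 18.2 and 31.6 CPM in Y-TTPΔARE (-0.10, SE 0.21, adjusted p = 0.879). In MPP3 the value was 0.06 without Y-TTPΔARE replicate 3 and 0.019 without Y-WT replicate 1. No difference passed in any of the sets, and the sign in young HSCs and in MPP3 rested on single libraries.

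Dusp2 was 185, 107, 117 and 134 CPM in Y-WT HSCs and 205, 185, 127 and 109.5 CPM in Y-TTPΔARE HSCs, 109, 122, 108, 95.4 and 106 CPM in M-WT and 86.2, 111 and 102 CPM in M-TTPΔARE HSCs, and 118, 131, 122 and 130.2 CPM in Y-WT MPP3 and 149, 183, 99.9 and 156 CPM in Y-TTPΔARE MPP3. The log2 fold changes were 0.19 (SE 0.21), -0.09 (SE 0.09) and 0.25 (SE 0.14), with adjusted p of 0.515 to 0.758. In MPP3 3 of the 4 Y-TTPΔARE libraries lay above all Y-WT libraries and the fourth below all of them. Dusp10, which acts on p38 and JNK, was 7.12, 5.36, 5.09 and 7.02 CPM in Y-WT MPP3 and 8.86, 7.79, 10.5 and 9.44 CPM in Y-TTPΔARE MPP3. The groups did not overlap, and the log2 fold change of 0.62 (SE 0.20, unadjusted p = 0.0106) did not pass after adjustment (adjusted p = 0.213). It passed when all 24 libraries shared a fit (0.65, adjusted p = 0.0386). In HSCs its log2 fold changes were 0.03 (SE 0.17) in young and 0.25 (SE 0.14) in middle-aged mice. Of 6 other phosphatases of MAP kinases, 1 of 5 tested was called between genotypes in middle-aged HSCs (Dusp4 above), where 1.41% of all genes were called, and none in young HSCs (0 at an unadjusted p under 0.05) or MPP3 (1 at an unadjusted p under 0.05), by edgeR or DESeq2.

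Ppp2ca had the highest mean CPM of the 10 genes over the 24 libraries, although Mapk14 was higher in both middle-aged groups (329 against 320.3 CPM in M-WT and 334 against 289.7 CPM in M-TTPΔARE). It was 375, 322, 302 and 302 CPM in Y-WT HSCs and 391, 343, 328 and 337 CPM in Y-TTPΔARE HSCs. In middle-aged HSCs it was 312, 333, 338, 302 and 316 CPM in M-WT and 278, 304 and 287 CPM in M-TTPΔARE, and in MPP3 331, 454, 354 and 405 CPM in Y-WT MPP3 and 445, 384, 349 and 434 CPM in Y-TTPΔARE MPP3. The genotypes overlapped in each set, by 1 M-TTPΔARE library in middle-aged HSCs. The log2 fold changes were 0.09 (SE 0.08), -0.11 (SE 0.05) and 0.10 (SE 0.11), with adjusted p of 0.731, 0.334 and 0.761. Of 16 other genes of PP2A subunits and of its activator, none was called by edgeR or DESeq2 in any genotype comparison, and 2, 1 and 1 had an unadjusted p under 0.05 in young HSCs, middle-aged HSCs and MPP3.

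Between the cell types of young WT mice, Mapk14 and Mapkapk2 were higher in MPP3 than in HSCs. The comparison shares its libraries with the genotype comparisons above, and cell type and library set cannot be told apart in it. Mapk14 was 277 to 322 CPM in Y-WT HSCs and 334 to 391 CPM in Y-WT MPP3, with no overlap, and rose 1.25-fold (log2 fold change 0.32, SE 0.09, adjusted p = 0.0263 by edgeR). Mapkapk2 was 125 to 152 CPM in HSCs and 137 to 210.2 CPM in MPP3, where the lowest MPP3 library lay below the highest HSC library, and rose 1.36-fold (0.44, SE 0.13, adjusted p = 0.0344). Called were 2 of the 10 genes, and 22.2% of the 22816 genes tested. All 10 were over the level limit, as were 13433 of the genes tested, and the 5069 called genes all lie among these. Mapk14 alone of the 10 separated the cell types, against 38.9% of genes over the level limit. The median log2 fold change over the genes above the level limit was 0.12 in this comparison under the scaling used (0.08 under RLE factors), and the median of the 10 was 0.01. The call of Mapk14 was lost in the likelihood ratio test (adjusted p = 0.0903), and both calls with no filter on low counts (adjusted p of 0.104 and 0.0611). Both were also lost without Y-WT HSC replicate 3 (0.28 and 0.41, adjusted p of 0.0723 and 0.0890) or Y-WT MPP3 replicate 2 (0.33 and 0.40, adjusted p of 0.0987 and 0.110). With the replicate number as a block the call of Mapkapk2 was lost and Dusp1 was called. With Dusp1 added, 3 of the 10 were called by DESeq2 and under RLE factors, which called 5849 and 5352 of all genes. Without Y-WT HSC replicate 1, a library that stood apart, 4 of the 10 were called: Mapk14 (0.43), Mapkapk2 (0.58), Ppp2ca (0.42) and Dusp6 (0.42, adjusted p = 0.0479). The count over all genes was 6498 in that fit, against 5069 with all libraries.

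Dusp1 was lower in MPP3 than in HSCs of WT mice, at 30.8 to 43.2 against 42.4 to 81.2 CPM, with a log2 fold change of -0.61 (SE 0.24, adjusted p = 0.0968) that did not pass. DESeq2 called it (-0.64, adjusted p = 0.0130), as did edgeR with RLE factors (adjusted p = 0.0454), with no filter on low counts (adjusted p = 0.0437) and without Y-WT MPP3 replicate 1 (-0.77, adjusted p = 0.0380), and without Y-WT HSC replicate 1 it was -0.26 (adjusted p = 0.186). Ppp2ca was 1.205-fold in MPP3 (log2 fold change 0.27, SE 0.11, adjusted p = 0.125), and was called without that library (0.42, adjusted p = 0.0098) or without Y-WT MPP3 replicate 4 (0.31, adjusted p = 0.0436). Heat shock genes of cell isolation moved between the cell types as well, with Hspa8, Hsph1 and Hsp90aa1 called higher in MPP3 and a summed level of 2596 to 3468 against 1900 to 2484 CPM over 7 genes, and of the immediate early genes Egr1, Jun, Jund and Klf6 were called lower and Btg2 higher. Besides the markers of HSCs and MPP3, 7 of 8 endothelial markers were called lower in MPP3 (143 to 176 against 335 to 908 CPM in sum), 7 of 10 monocyte and macrophage markers and 1 of 6 dendritic markers higher, 3 megakaryocyte markers lower, and of the T and NK cell markers 2 higher and 3 lower. The olfactory and vomeronasal receptor genes summed to 20.5 to 300.5 CPM in Y-WT MPP3 and 64.4 to 1015 CPM in Y-WT HSCs. Their part in the results was not tested.

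In Y-TTPΔARE mice the same contrast of MPP3 with HSCs gave no call among the 10 by edgeR, with 3 at an unadjusted p under 0.05, 1 called by DESeq2 (Mapkapk2, 0.32, adjusted p = 0.0180) and none by the likelihood ratio test. Over all genes edgeR called 16.3% of 21478, DESeq2 4525 genes and the likelihood ratio test 3689. None of the 10 separated the cell types, against 30.9% of genes over the level limit. Mapkapk2 had a log2 fold change of 0.31 (SE 0.11, adjusted p = 0.0970) and was called without Y-TTPΔARE MPP3 replicate 4 (0.38, adjusted p = 0.0308). Mapkapk3 had a value of -0.26 (SE 0.11, adjusted p = 0.145), Mapk14 of 0.09 (SE 0.11, adjusted p = 0.676) and Dusp1 of -0.51 (SE 0.23, adjusted p = 0.166). Here libraries with the same replicate number deviated together, although MPP3 replicate 2 correlated more with an HSC library of another number. With the number as a replicate block Dusp1 was called by edgeR (-0.53, adjusted p = 0.0317), and this call rests on a pairing that the labels do not name. Of the immediate early genes Egr1, Ier3, Btg2 and Klf4 were called (2 higher, 2 lower), and Hsp90aa1 was called higher. Endothelial markers (6 of 8) and 4 megakaryocyte markers were called lower. Monocyte and macrophage (8 of 10), dendritic (5 of 6) and 2 neutrophil markers were called higher. Of T and NK cell markers 2 were called higher and 4 lower. The part of all these was not tested.

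**Figure D4:**
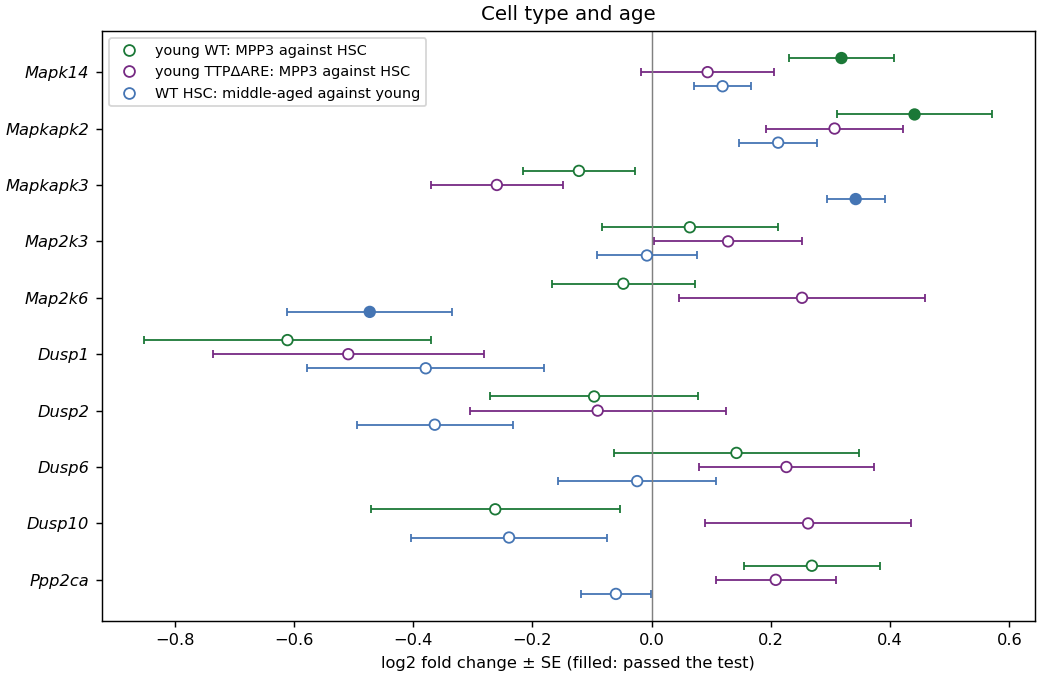
Log2 fold change (horizontal axis) of each of the 10 genes (vertical axis) between MPP3 and HSCs of young WT and of young TTPΔARE mice, and between middle-aged and young WT HSCs. Bars are the SE, and a filled point passed the test. Mapk14 (0.32) and Mapkapk2 (0.44) are filled for the cell types of WT mice, and Mapkapk3 (0.34) and Map2k6 (-0.47) for age.

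The wider pathway was compared between the cell types of WT mice, where 22.2% of all genes tested were called. Of the 24 other p38 pathway genes 9 were called higher and 3 lower in MPP3. Gadd45g, a stress-induced adaptor that activates a kinase upstream of p38, was 9.55 to 15.7 CPM in Y-WT HSCs and 0.572 to 2.20 CPM in Y-WT MPP3 (log2 fold change -3.01, SE 0.37, adjusted p = 4.3e-04). Mapk13, which encodes p38δ, was 3.96 to 8.17 CPM and 1.03 to 2.35 CPM (-1.90, SE 0.38, adjusted p = 0.0056), while Map3k6, an upstream kinase, was 2.36 to 5.41 CPM and 4.07 to 12.7 CPM (1.36, SE 0.38, adjusted p = 0.0273). Of the 6 other MAP kinase phosphatases, Dusp4 (-1.43) and Dusp16 (-0.80) were called lower and Dusp5 (0.73) higher. The count was 1 without Y-WT MPP3 replicate 2, where 3623 of all genes were called. Dusp3 (-1.28) was the 1 called of 13 tested atypical dual-specificity phosphatases. Of 15 other PP2A genes tested 6 were called, all higher in MPP3, led by the regulatory subunits Ppp2r5d (0.72, SE 0.09) and Ppp2r5e (0.45, SE 0.08) and by Ptpa (0.58, SE 0.10), a PP2A activator. Of the 12 ERK response genes Spry1 (-1.84, SE 0.20), Dusp4 and Dusp5 were called, the last 2 counted above as well. None of 7 ERK and JNK kinases was called by edgeR, with 3 at an unadjusted p under 0.05 and 1 called by DESeq2. Without Y-WT HSC replicate 1, 3 of the 7 kinases and 8 of the PP2A genes were called, where all genes called rose from 5069 to 6498.

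Mapkapk3 was higher and Map2k6 lower in middle-aged than in young WT HSCs. Age and library set cannot be told apart in this comparison. Mapkapk3 was 165, 147, 154 and 144 CPM in Y-WT and 198, 201, 202, 196 and 197 CPM in M-WT HSCs. Every M-WT library lay above every Y-WT library, and the level rose 1.27-fold (log2 fold change 0.34, SE 0.05, adjusted p = 0.0014 by edgeR). The call held in each alternative and without each library, with log2 fold changes of 0.32 to 0.43 and adjusted p of at most 0.0302. Map2k6 was 14.4 to 16.8 CPM in Y-WT and 8.59 to 14.4 CPM in M-WT, where the highest M-WT library lay just below the lowest Y-WT library, and was 0.720-fold in M-WT (log2 fold change -0.47, SE 0.14, adjusted p = 0.0368). The call of Map2k6 was lost without M-WT HSC replicate 2 or 3 or Y-WT HSC replicate 2, 3 or 4 (-0.36 to -0.51, adjusted p of 0.0576 to 0.0932). It was also lost when all 24 libraries shared a fit. Mapkapk2 had a log2 fold change of 0.21 (SE 0.07, adjusted p = 0.0435) but did not reach the limit on fold change. It was called without Y-WT HSC replicate 1 (0.29, adjusted p = 0.0062). Dusp2 was 107 to 185 CPM in Y-WT and 95.4 to 122 CPM in M-WT (-0.36, SE 0.13, adjusted p = 0.0707), and was -0.17 without that library and was called without Y-WT HSC replicate 2 (-0.46, adjusted p = 0.0371).

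Called in this comparison were 2 of the 10 genes, Mapkapk3 and Map2k6, and 12.1% of the 22280 genes tested, of which 13647 were over the level limit. The same 2 did not overlap between the ages, against 22.6% of genes over the level limit. Age and the olfactory and vomeronasal receptor level also moved together, with 42.7 to 209 CPM in M-WT and 64.4 to 1015 CPM in Y-WT HSCs, and the summed level of 8 endothelial markers, of which 5 were called lower in M-WT, was 252 to 307 CPM in M-WT and 335 to 908 CPM in Y-WT. Of 10 HSC markers 7 were called higher in M-WT. Of T and NK cell markers 6 were called lower (22.2 to 37.6 against 81.5 to 99.6 CPM in sum), as were 3 of 10 monocyte and macrophage markers and 3 MPP3 markers, with 1 MPP3 marker higher. Megakaryocyte markers summed to 566 to 687 CPM in M-WT and 288 to 301 CPM in Y-WT, with 1 called higher and 2 lower. Of 9 erythroid markers 3 were called higher in M-WT (Hbb-bs, Hba-a1 and Hba-a2), of the dendritic markers Clec9a was called higher and Flt3 lower (29.7 to 36.9 against 45.3 to 71.1 CPM in sum), and the neutrophil marker Ltf was called lower. Their part in the result was not tested. Of the 24 other p38 pathway genes 5 were called, all higher in M-WT: Gadd45g (0.96), Mapk12 (0.52), Mknk2 (0.51), Map3k20 (0.36) and Rps6ka4 (0.35), named after their values were seen. The count was 8 without Y-WT HSC replicate 1 and 3 without Y-WT HSC replicate 2. Of all genes 3658 and 1990 were called in these fits, against 2689 with all libraries. Dusp4 was also higher in M-WT (0.65, SE 0.11, adjusted p = 0.0028), at 26.7 to 34.9 CPM against 17.7 to 23.0 CPM in Y-WT.

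An interaction term asked whether TTPΔARE acted differently at the 2 ages or in the 2 cell types. Over the 16 HSC libraries none of the 10 genes was called by edgeR, DESeq2 or the likelihood ratio test. Over all genes edgeR called 0.0213% of 28189, DESeq2 160 genes and the likelihood ratio test 26. By edgeR 3 of the 10 had an unadjusted p under 0.05: Mapkapk3 (-0.27, SE 0.10, adjusted p = 0.279), Ppp2ca (-0.26, SE 0.10, adjusted p = 0.293) and Mapkapk2 (-0.22, SE 0.10, adjusted p = 0.309). The value is the log2 fold change in middle-aged mice minus that in young mice, and its median over the genes above the level limit was -0.11 (-0.05 under RLE factors). The interaction for Dusp6 was -0.43 (SE 0.21, adjusted p = 0.338) and for Dusp1 0.58 (SE 0.30, adjusted p = 0.358). These values rested in part on Y-WT HSC replicate 1. Without it the interaction was -0.70 for Dusp6 (adjusted p = 0.0515), -0.40 for Ppp2ca (adjusted p = 0.0548), -0.38 for Mapkapk3, -0.36 for Mapkapk2 (adjusted p = 0.0624 for both) and 0.24 for Dusp1 (adjusted p = 0.508), none of the 10 was called, and the count over all genes rose from 6 to 56. Without Y-TTPΔARE HSC replicate 1 the interaction was -0.19 for Mapkapk3 and for Ppp2ca and 0.73 for Dusp1, and none of the 10 was called. Over the 16 young libraries none was called by these tests and none had an unadjusted p under 0.05. Over all genes edgeR called 0.425% of 26337, DESeq2 335 genes and the likelihood ratio test 201. For Dusp6 the effect in MPP3 minus that in HSCs was 0.06 (SE 0.28, adjusted p = 0.960), and -0.08 without Y-WT HSC replicate 1. That Dusp6 was called in MPP3 and not in HSCs is therefore not a shown difference between the cell types.

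Set against each other within a library, the kinases MK2 and MK3 gave a pattern that was chosen after the values were seen. The ratio of the Mapkapk2 to the Mapkapk3 level in RPKM was 1.503 to 1.67 in Y-WT HSCs, 1.29 to 1.58 in Y-TTPΔARE HSCs, 1.37 to 1.56 in M-WT HSCs and 1.26 to 1.42 in M-TTPΔARE HSCs. In MPP3 it was 2.05 to 2.47 in Y-WT and 1.96 to 2.25 in Y-TTPΔARE, above all 16 HSC libraries. The difference of the mean log2 ratio between MPP3 and HSCs was 0.56 in either genotype of young mice (p = 0.0286 in a two-sided exact permutation test, which cannot go lower with 4 libraries a group, and 0.0857 adjusted over 6 comparisons). Leaving out each library in turn gave 0.51 to 0.62. Between the genotypes the difference was -0.18 in young HSCs, -0.14 in middle-aged HSCs and -0.18 in MPP3, with exact p of 0.0857, 0.0714 and 0.0857. For M-WT against Y-WT HSCs it was -0.13. Adjusted over the 6 comparisons each p was 0.0857, so that none of the differences passed, those between cell types included, and the sizes of the differences were not tested against each other.

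**Figure D5:**
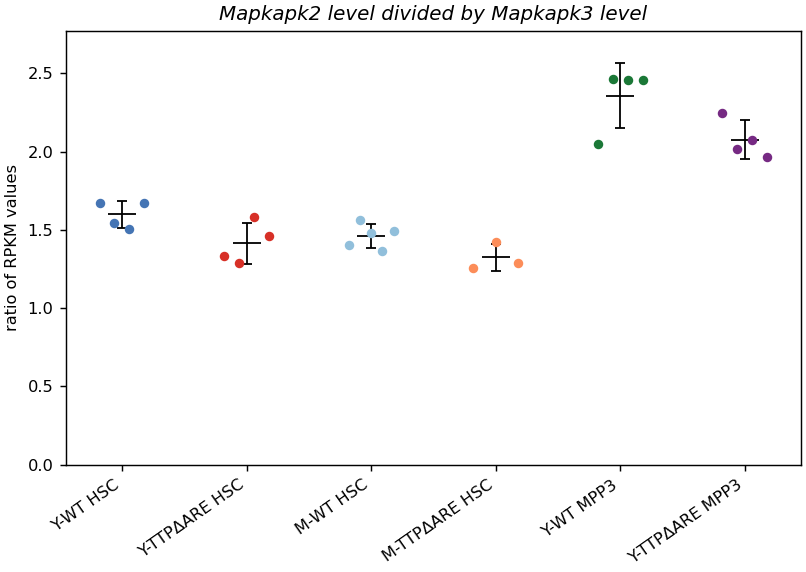
Ratio of the Mapkapk2 to the Mapkapk3 level in RPKM (vertical axis, from 0) in every library, by group (horizontal axis). Points are libraries and bars are the mean ± SD. All 8 MPP3 libraries (1.96 to 2.47) lie above all 16 HSC libraries (1.26 to 1.67).

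Within groups, some of the members varied together and others did not. With each gene centred on its group mean, Pearson's r of log2 CPM over the 24 libraries was 0.80 between Dusp1 and Dusp6, 0.77 between Mapkapk2 and Mapkapk3, 0.73 between Dusp1 and Dusp2 and between Mapkapk2 and Ppp2ca, and 0.71 between Dusp2 and Dusp6, and was lowest between Mapkapk3 and Map2k6 (-0.56). Map2k6 had a negative r with 8 of the other 9 genes, and Dusp10 was near 0 with most of them (-0.02 with Mapkapk3 and with Ppp2ca, -0.09 with Dusp1 and 0.05 with Dusp2, up to 0.36 with Map2k3). The points share libraries, depth and handling, and these values are descriptions across genes. Dusp1 had an r of 0.88 with the summed immediate early genes and Dusp6 of 0.71. Ppp2ca had an r of -0.82 with the summed olfactory and vomeronasal receptor genes, Mapk14 of -0.77, Mapkapk3 of -0.70, Dusp2 of -0.69, Mapkapk2 of -0.68, Dusp1 of -0.60, and Dusp6 and Map2k3 of -0.54 each. Map2k6 (0.15) and Dusp10 (-0.06) did not follow them. With the summed heat shock genes r was 0.85 for Ppp2ca, 0.70 for Mapkapk3, 0.68 for Dusp2, 0.61 for Dusp1, 0.53 for Mapkapk2 and 0.51 for Mapk14. With the summed plasma cell markers it was 0.59 for Dusp6 and 0.54 for Dusp1. With the summed monocyte and macrophage markers it was 0.50 for Dusp6, 0.49 for Dusp10 and 0.41 for Dusp1. With the summed endothelial markers it was 0.51 for Dusp10 and 0.44 for Map2k3. The total count of the library had an r of 0.75 with Mapk14 and with Dusp2, 0.66 with Dusp1, 0.65 with Dusp6, 0.64 with Ppp2ca, 0.60 with Map2k3 and 0.59 with Mapkapk2.

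By the same measure over 13440 genes, the gene most like Dusp1 was Tank, an adaptor of TRAF signalling (r = 0.96), followed by Shisa5 and Stx6 and, at 0.84 each, Ppp3ca and the immediate early gene Ier2. Dusp6 was most like Ndfip1 (0.88), Hoxa9 (0.85), Shisa5 (0.85), Tsc22d3 (0.84) and Slc52a3 (0.82). The genes most like Dusp2 were Ptp4a2 and Cd82 (0.87 each), then Syap1, Stx12 and Csnk2a1 (0.86 each). Mapkapk2 was most like Abcb8 (0.88), Mapre2 (0.88), Sdha (0.87), Daxx (0.86) and Cc2d1b (0.86). Shisa5 stood in the lists of both Dusp1 and Dusp6, and no other gene stood in more than 1 of the 4 lists.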

How the data were processed

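Gene counts of 24 bulk mRNA-seq libraries were deposited by the authors, who trimmed the reads with cutadapt, aligned them with STAR to mm10 with a GENCODE index and counted them with featureCounts. The counts are not normalised, and whether strand was used and how reads of near-identical copies were treated is not given in the sources used here. For Y-TTPΔARE MPP3 the study's own analysis used 1 library fewer, and all 4 were used here. From the counts, CPM and RPKM were computed with TMM factors. Each comparison was fitted on its own groups with edgeR 4.0.16 in R 4.3.3 (quasi-likelihood test, filterByExpr at min.count 10 and min.total.count 15, Benjamini-Hochberg adjustment over all genes tested). Calls needed an adjusted p below 0.05, an average log2 CPM above 1.5 and, except for interactions, a fold change above 1.2. The log2 CPM for correlations used a prior count of 2. Positions and 3′ UTRs are those of the GENCODE M21 annotation of GRCm38, and another release may differ. The pipeline was tested on simulated data.

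The alternatives were DESeq2 1.42.0, the likelihood ratio test, RLE factors, no filter, no limits on fold change and level, a fit of all 24 libraries, a replicate block, and leaving out each library. Libraries with the same number deviated together with a correlation over 0.1 for each number only between Y-TTPΔARE MPP3 and Y-TTPΔARE HSC (0.36, 0.16, 0.20 and 0.20), so there the blocked value is given beside the result. Replicate 2 of Y-TTPΔARE MPP3 correlated more with an HSC library of another number, and the labels name no pairing. A pairing is thus borne out only in part. The 10 genes and all gene lists were chosen with earlier results of these data known. Values are given for every sample for the members called in any comparison and for the 2 with the highest mean CPM. Of the other lists, genes called between genotypes and up to 3 genes with the largest change between the cell types were named, and 5 genes most like each of Dusp1, Dusp2, Dusp6 and Mapkapk2.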

Additional observations from a re-analysis of the deposited data

Results flagged for a closer look

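Of 50 sets of a gene and a group with at least 4 libraries, 5 held a library whose distance to its nearest neighbour took up most of the range of the group (Dixon's ratio over the 95% critical value), and chance gives about 1 in 20. In Y-WT HSCs replicate 1 was the highest for Dusp6 (116 CPM, next 73.5 CPM, ratio 0.937) and for Dusp1 (81.2 CPM, next 48.2 CPM, ratio 0.850). This is the library with fewer detected genes and less olfactory and vomeronasal receptor signal than the rest of its group, and the part of that in these values was not tested. In Y-TTPΔARE HSCs replicate 1 was the highest for Mapk14 (338 CPM, next 300.3 CPM, ratio 0.909). That library also had fewer detected genes and less olfactory and vomeronasal receptor signal than the rest of its group. The part of that in the Mapk14 value was not tested. In M-WT HSCs replicate 5 was the highest for Dusp1 (58.4 CPM, next 40.2 CPM, ratio 0.755) and replicate 3 the lowest for Dusp6 (72.0 CPM, next 84.9 CPM, ratio 0.805). Groups of 3 libraries were not examined in this way.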

How the results depend on the processing

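The count of the 10 genes called was 1 in young HSCs by DESeq2 (0 in the analysis reported). For MPP3 it was 2 with all 24 libraries in the fit, 0 with the replicate block (Dusp6 0.75, adjusted p = 0.128) and 0 to 1 with a library left out. For MPP3 against HSCs in WT it was 1 by the likelihood ratio test, 1 with no filter on low counts and 0 to 4 with a library left out, and in TTPΔARE 1 by DESeq2, 2 in the fit of all 24 libraries, 1 with the block and 0 to 1 with a library left out. For age it was 1 in the fit of all 24 libraries and 1 to 3 with a library left out.

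Log2 fold changes near 0 changed sign. With no filter on low counts these were Mapkapk2 in young HSCs (0.037), Map2k3 (0.073), Dusp6 (0.048) and Ppp2ca (0.023) with age, and Dusp2 in the interaction with cell type (0.029). In the fit of all 24 libraries they were Mapkapk2 in young HSCs (0.010), Dusp2 in TTPΔARE MPP3 against HSCs (0.019), Mapk14 in the interaction with age (0.0049), and Dusp2 (0.063) and Ppp2ca (0.0086) in that with cell type. With the replicate block they were Map2k3 with age (0.031) and Map2k6 in the interaction with age (0.030), and with DESeq2 or RLE factors Mapk14 in the interaction with age (0.0063 and 0.0059) and Dusp2 in that with cell type (0.052 each). The cause was not tested.

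With a library left out, values that changed sign ranged in young HSCs from -0.057 to 0.096 for Mapkapk2, -0.34 to 0.072 for Dusp1 and -0.085 to 0.18 for Dusp10, and in MPP3 from -0.0052 to 0.20 for Map2k6 and -0.21 to 0.062 for Dusp1. Between WT cell types they were -0.042 to 0.22 for Map2k3, -0.15 to 0.055 for Map2k6 and -0.17 to 0.16 for Dusp2, between TTPΔARE cell types -0.22 to 0.034 for Dusp2, and with age -0.063 to 0.086 for Map2k3, -0.085 to 0.19 for Dusp6 and -0.093 to 0.026 for Ppp2ca. In the interaction with age they were -0.16 to 0.038 for Mapk14 and -0.23 to 0.022 for Map2k6, and in that with cell type -0.016 to 0.17 for Map2k3, -0.13 to 0.33 for Dusp1, -0.14 to 0.20 for Dusp2, -0.079 to 0.22 for Dusp6 and -0.14 to 0.060 for Ppp2ca.

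Over all genes the count called moved more. It was 6 in young HSCs (304 by DESeq2, 146 by the likelihood ratio test, 73 with no filter and 18 in the fit of all 24 libraries), 298 in middle-aged HSCs (823 by DESeq2, 842 with no filter, 53 in the fit of all 24 libraries and 108 with the block) and 325 in MPP3 (766 by DESeq2, 538 by the likelihood ratio test and 1244 in the fit of all 24 libraries). With a library left out it was 0 (without Y-WT HSC replicate 2) to 12 (without Y-WT HSC replicate 1) in young HSCs, 68 (without M-TTPΔARE HSC replicate 3) to 299 in middle-aged HSCs, 185 (without Y-TTPΔARE MPP3 replicate 1) to 347 in MPP3, and 0 to 56 in the interaction with age, so the shares of all genes called move with these libraries. In the interaction with cell type the count was 112, and 261 in the fit of all 24 libraries. It was 66 (without Y-WT HSC replicate 4) to 132 with a library left out. Outside TTPΔARE MPP3 against HSCs the replicate numbers are only shared, with correlations of -0.14 to 0.27, and the replicate block lost the calls of Etv5 and Spry4 in middle-aged HSCs and of Mapkapk2 between WT cell types (adjusted p = 0.0968), and gained that of Dusp1 there (-0.56, adjusted p = 0.0165).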
